A study of Canis lupus familiaris with 15 samples.

Results

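The genes described here are those that carry a ZNF symbol, that is ZNF followed by a number and at most 1 further letter, the names given to many zinc finger protein genes. They were chosen by symbol alone. The deposited tables list 138 such genes among 7698 genes in all: 62 of the 4412 genes in the table for D17, 10 of the 1189 in the table for HMPOS and 103 of the 5746 in the table for HMPOS against POS. RNA was sequenced from cultured canine osteosarcoma lines in 5 groups of 3 libraries: D17 extravasation-positive and D17 parental, HMPOS extravasation-positive and HMPOS parental, and POS parental cells. D17 and HMPOS are metastatic lines, and HMPOS was derived from POS. Extravasated cells are sub-lines expanded in culture from clusters dissected out of *Tg(fli1a:EGFP)* zebrafish embryos, whose vessels are fluorescent, and parental cells were grown without passage through zebrafish. The sub-lines therefore differ from the parental lines both in extravasation and in isolation and regrowth, which cannot be told apart here. Of 10 osteoblast and osteosarcoma markers, 5 were listed for D17, 5 for HMPOS and 6 for the comparison with POS, among them SPARC at 433.0 FPKM in extravasated D17 and 2897 FPKM in extravasated HMPOS cells.

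Most ZNF proteins carry arrays of short zinc-binding loops, each of which can contact a few bases of DNA. Many of them begin with a KRAB domain, which binds the corepressor KAP1 (encoded by TRIM28). KAP1 in turn brings the histone methyltransferase SETDB1, HP1 proteins and DNA methylation to the bound site, often a copy of a transposable element. Other ZNF proteins lack this domain and act as activators, as chromatin adaptors, or on RNA and ribosomes. KRAB zinc finger genes arose by repeated duplication and lie in clusters, in the dog above all on chromosome 1.

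All values given here are the authors' pooled values, 1 per group over its 3 libraries, in FPKM (fragments relative to transcript length and sequencing yield). The spread between libraries and the depth are unknown, so no SD, interval or test is given, and each difference has no replicate check. The tables list only genes with a q-value below 0.05 in the authors' test. A ZNF gene that is not listed may have been unchanged, too low to test or variable between libraries, and small changes are missing from the lists by construction. The tables call the groups meta and norm, and norm was taken as parental because POS, a parental group, carries that name. Every direction given for D17 and HMPOS rests on these column names and would reverse if they were exchanged. The article reports more genes down than up in both lines. With the names as read here, 2390 of 4412 listed genes were higher in extravasated D17 and 797 of 1189 in extravasated HMPOS. The article thus appears to read D17 and HMPOS the other way round, so those directions are in doubt. Sizes of change and the direction of HMPOS over POS do not depend on the reading. The parental label of HMPOS in the comparison with POS does, since the same group name stands there. Log2 ratios were recomputed from the FPKM, as extravasated over parental cells or as HMPOS over POS. In bulk RNA, fewer cells that express a gene and less RNA per cell cannot be told apart. ZNF genes of a cluster resemble each other, and how the authors divided fragments between near-identical copies is not known here, so single values within a cluster are uncertain.

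ZNF genes showed smaller changes and lower levels than the listed genes as a whole. The median of the higher group value was 7.01 FPKM for the 62 ZNF genes in D17, against 19.5 FPKM for all listed genes. It was 7.12 against 13.5 FPKM in HMPOS and 8.64 against 20.9 FPKM in HMPOS against POS. A value above 10 FPKM was reached by 30.6% of the ZNF genes and 67.2% of all listed genes in D17, and by 44.7% and 70.1% in HMPOS against POS. In HMPOS, with 10 ZNF genes, these shares were closer, at 50% and 57.4%. A change of more than 2-fold was found for 7 of 62 ZNF genes in D17 (11.3%, against 26.8% of all listed genes), for 1 of 10 in HMPOS (10% against 25.3%) and for 14 of 103 in HMPOS against POS (13.6% against 27.6%). The median size of the log2 ratio, sign left out, was 0.58 for ZNF genes and 0.68 for the whole D17 table, 0.63 and 0.69 for HMPOS, and 0.56 and 0.66 in HMPOS against POS. ZNF genes thus sat nearer to the diagonal in the plot of both group values. Of 266 ZNF symbols in RefSeq, 57 (21.4%) were listed in D17, against 20% of the other protein-coding symbols. The shares were 3.38% and 5.4% in HMPOS, and 33.5% and 25.8% in HMPOS against POS.

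**Figure D1:**
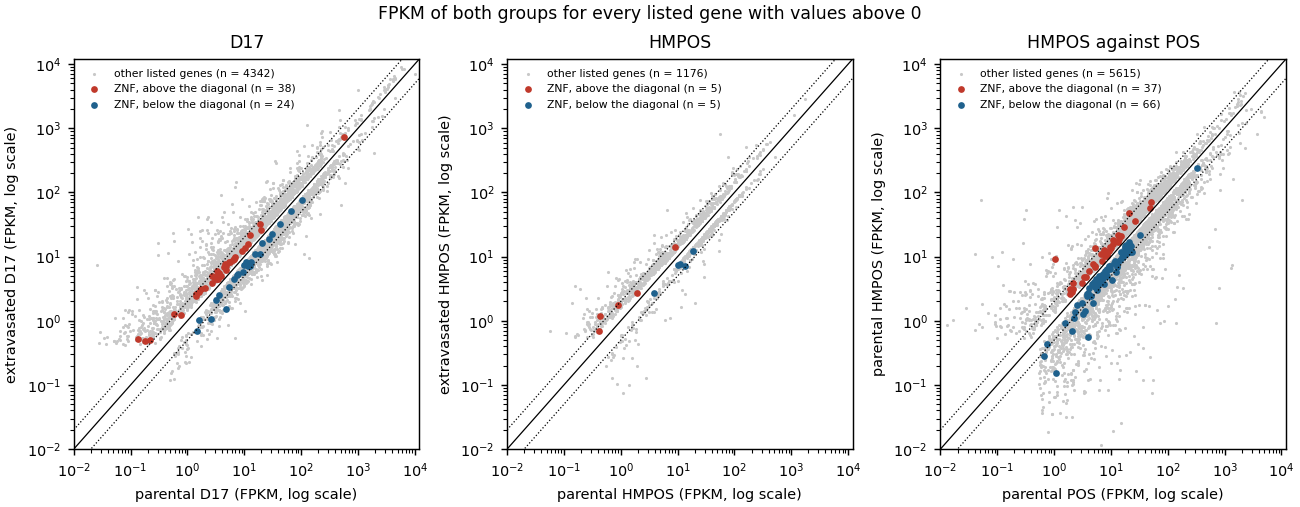
FPKM of every listed gene with values above 0 in both groups, on log axes, for D17, HMPOS and HMPOS against POS. Grey points are other listed genes and colored points ZNF genes, red above and blue below the solid line of equal values; dotted lines mark a 2-fold change. Most ZNF genes lie between the dotted lines, 55 of 62 for D17, 9 of 10 for HMPOS and 89 of 103 for HMPOS against POS.

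The first comparison asks which ZNF genes differ between D17 cells that extravasated and the parental line. In extravasated D17 cells 38 ZNF genes were higher and 24 lower than in parental cells, 61.3% higher, against 54.2% of all listed genes. Past a 2-fold change, 4 ZNF genes were higher (6.45%, against 18.3% of all listed genes) and 3 lower (4.84%, against 8.5%). The median log2 ratio was 0.41 for ZNF genes and 0.39 for all listed genes. Relative to that median of all listed genes, 38 ZNF genes were above and 24 below, the same split as without centring. No ZNF gene had a log2 ratio between ZNF517 at -0.31 and ZNF365 at 0.39, and the median fell at the edge of this gap. ZNF365, ZNF558 and ZNF706 stood above it by at most 0.0028, so the unchanged split has no weight. Past 2-fold, however, centring on that median left 2 ZNF genes higher and 10 lower. Centring shifts every listed gene alike, and the share of all listed genes past 2-fold after it was not counted.

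Of the 4 ZNF genes more than 2-fold higher in D17, 3 were below 1 FPKM in both groups. ZNF285 was at 0.528 FPKM in extravasated cells against 0.136 in the parental line, a log2 ratio of 1.96. ZNF467, whose mouse counterpart promotes fat cell over bone cell differentiation, was at 0.487 and 0.179 FPKM, and ZNF454, a KRAB zinc finger gene, at 0.498 and 0.216 FPKM. The fourth was ZNF624, on chromosome 5 from 39286391 to 39323767 (ENSCAFG00000030402), at 1.26 FPKM in extravasated cells against 0.585 in the parental line. With a pseudocount of 1 FPKM, 0 ZNF genes were more than 2-fold higher and 1 more than 2-fold lower.

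The other increases in D17 among genes of at least 1 FPKM were below 2-fold. ZNF341, an activator of STAT3 transcription, was at 2.64 FPKM in extravasated cells against 1.43 in the parental line. ZNF81, an X-linked gene, was at 4.96 and 2.73 FPKM, ZNF428 at 6.06 and 3.36 FPKM, and ZNF689 at 3.09 and 1.73 FPKM. These genes lay between 1.78-fold and 1.84-fold. ZNF667 was at 2.85 and 1.63 FPKM and ZNF821 at 7.78 and 4.53 FPKM. ZNF382, a KRAB zinc finger gene reported as silenced in several tumors, was well expressed for a ZNF gene, at 32.4 FPKM in extravasated cells against 18.9 in the parental line.

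With the column names as read, ZNF215 showed the largest decrease in D17. With the groups exchanged it would be the largest increase, and ZNF285 the largest decrease. It is imprinted in people, and lies on chromosome 21 from 30650625 to 30680672 (ENSCAFG00000006707). It was at 1.55 FPKM in extravasated cells against 4.78 in the parental line, a log2 ratio of -1.63 or 3.09-fold lower. ZNF789 was at 1.07 and 2.56 FPKM, 2.41-fold lower, and ZNF19 at 0.702 and 1.48 FPKM, 2.11-fold lower. Below 2-fold, ZNF593, which takes part in the maturation of the large ribosomal subunit, was at 10.9 and 19.1 FPKM. ZNF142, with a long array of fingers, was at 7.19 and 12.4 FPKM, ZNF16 at 7.05 and 11.6 FPKM, and ZNF367 at 8.31 and 13.2 FPKM.

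The ZNF genes with the highest level in D17 changed by less than 2-fold. ZNF706, which encodes a short protein with a single finger, stood apart at 733.4 FPKM in extravasated cells against 560.5 in the parental line. ZNF146, made almost wholly of fingers, followed at 77.4 and 105.5 FPKM. ZNF326, part of a complex that links RNA polymerase II elongation with splicing, was at 52.1 and 66.9 FPKM, and ZNF704 at 32.5 and 43.2 FPKM. Of these 4 genes, only ZNF706 was higher in extravasated cells, and its ratio equals the median of all listed genes to 2 decimals. Next in level was ZNF382, given above, at 32.4 and 18.9 FPKM, which was also higher in extravasated cells.

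**Figure D2:**
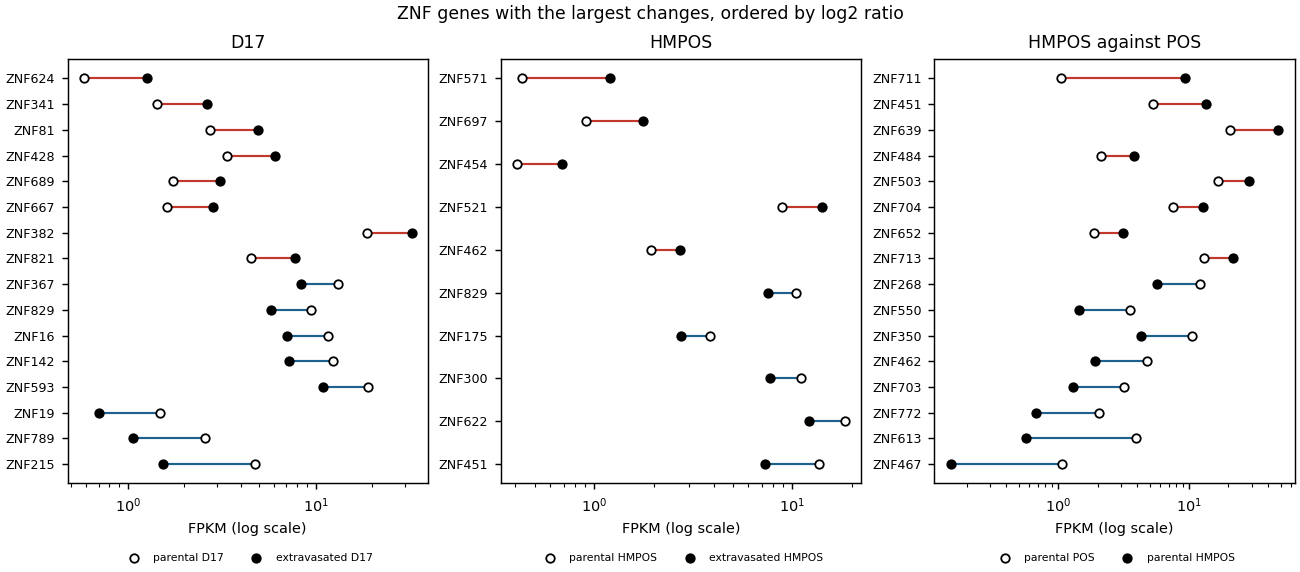
FPKM (log axis) in both groups for the ZNF genes with the largest changes and a higher value of at least 1 FPKM, 8 in each direction in D17 and HMPOS against POS, and for all 10 ZNF genes in HMPOS. Filled points are extravasated cells, or parental HMPOS in the last panel, and open points the group compared with; red bars mark higher and blue bars lower values in the filled group. The longest bar among increases is that of ZNF711 in HMPOS against POS, from 1.05 to 9.32 FPKM.

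The same question in HMPOS gave 10 ZNF genes, 5 higher and 5 lower in extravasated cells. The share that was higher was 50.0%, against 67% of all listed genes. Past a 2-fold change 1 ZNF gene was higher (10%, against 20.5% of all listed genes) and 0 were lower (against 4.79%). The gene past 2-fold was ZNF571, at 1.19 FPKM in extravasated cells against 0.432 in the parental line, on chromosome 1 from 115745242 to 115759075 (ENSCAFG00000031804). With 5 genes on either side and no small ratio listed, the median log2 ratio of 0.01 falls in the gap between ZNF462 at 0.48 and ZNF829 at -0.47, against a median of 0.58 for all listed genes. Its sign therefore has no weight, and it was negative with other settings. Relative to the median of all listed genes, 4 ZNF genes were above and 6 below, and past 2-fold 0 were higher and 5 lower. The share of all listed genes past 2-fold after this centring was not counted.

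Among the higher genes, ZNF521 is a large zinc finger protein that restrains RUNX2 in osteoblast precursors, and it was at 14.04 FPKM in HMPOS extravasated cells against 8.85 in the parental line. ZNF697 was at 1.76 and 0.910 FPKM, or 1.93-fold, just short of 2-fold. ZNF454 was at 0.688 and 0.409 FPKM, below 1 FPKM in both groups. ZNF462, which acts in chromatin and neural development, was at 2.70 and 1.93 FPKM.

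The largest decrease in HMPOS was that of ZNF451, a ligase that extends chains of the small modifier SUMO. It was at 7.23 FPKM in extravasated cells against 13.6 in the parental line, 1.88-fold lower. ZNF622, which helps to mature the large ribosomal subunit, was at 12.1 and 18.4 FPKM and was the ZNF gene with the highest level in this table. The KRAB zinc finger genes ZNF300, ZNF175 and ZNF829 were at 7.72 and 11.0 FPKM, at 2.76 and 3.85 FPKM, and at 7.51 and 10.4 FPKM. They changed by 1.38-fold to 1.43-fold.

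D17 and HMPOS shared 5 ZNF genes, which is 8.06% of the ZNF genes listed in D17 and 50% of those in HMPOS. Over all listed genes the shared part was 13.9% of the D17 table and 51.6% of the HMPOS table. In both lines ZNF454 was higher after extravasation, at 0.498 against 0.216 FPKM in D17 and 0.688 against 0.409 FPKM in HMPOS. ZNF622 was lower in both, at 18.6 against 27.3 FPKM in D17 and 12.1 against 18.4 FPKM in HMPOS. ZNF829 was also lower in both, at 5.76 against 9.44 FPKM in D17 and 7.51 against 10.4 FPKM in HMPOS.

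The remaining shared genes pointed in opposite directions. ZNF462 was lower in extravasated D17 cells, at 2.13 against 3.20 FPKM, and higher in extravasated HMPOS cells, at 2.70 against 1.93 FPKM. ZNF300 was higher in extravasated D17 cells, at 8.90 against 6.46 FPKM, and lower in extravasated HMPOS cells, at 7.72 against 11.0 FPKM. The difference between the lines was not tested, since no value per library was analysed here. Opposite directions were found for 2 of the 5 shared ZNF genes and for 79 of the 614 shared genes of all kinds (12.9%). Of the 5, only ZNF454 passed a 2-fold change, and in D17 alone.

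**Figure D3:**
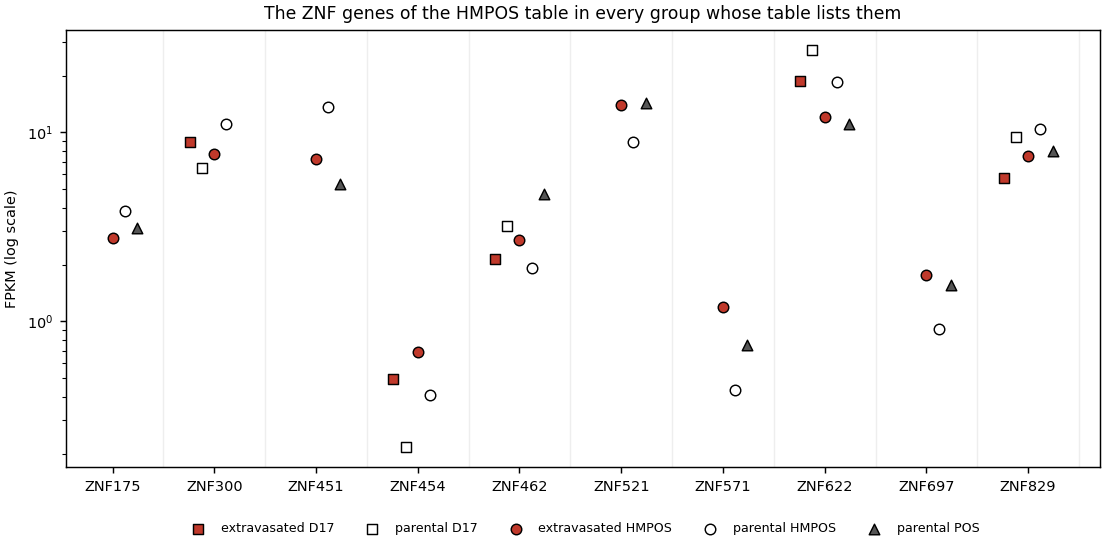
FPKM (log axis) of the 10 ZNF genes of the HMPOS table in each group whose table lists them, with red squares for extravasated and open squares for parental D17, red circles for extravasated and open circles for parental HMPOS, and grey triangles for parental POS. Parental HMPOS values are those of the HMPOS table; tables were normalized separately, so levels are comparable within a table. ZNF462 shows the opposite order in D17 (2.13 and 3.20 FPKM) and HMPOS (2.70 and 1.93 FPKM).

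In HMPOS against POS, the comparison of the metastatic line with the line it came from, 37 ZNF genes were higher and 66 lower in HMPOS. The share that was higher was 35.9%, against 47.7% of all listed genes. Past a 2-fold change 3 ZNF genes were higher in HMPOS (2.91%, against 8.49% of all listed genes) and 11 lower (10.7%, against 19.1%). The median log2 ratio was -0.40 for ZNF genes and -0.31 for all listed genes. Relative to the latter, 41 ZNF genes were above and 62 below, and past 2-fold 10 were higher and 4 lower. Here too, all listed genes were not counted again after centring.

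ZNF711 had the largest increase of any ZNF gene in the tables. It encodes an X-linked protein that brings the histone demethylase PHF8 to promoters, and lies on chromosome X from 66207498 to 66229155 (ENSCAFG00000017397). It was at 9.32 FPKM in HMPOS against 1.05 in POS, 8.83-fold higher. ZNF451 was at 13.6 and 5.33 FPKM, 2.55-fold higher. ZNF639, which lies in a region often amplified in squamous tumors, was at 47.9 and 20.4 FPKM, 2.35-fold higher. The next were ZNF484 at 3.82 and 2.14 FPKM and ZNF503 at 28.6 and 16.7 FPKM. ZNF704, ZNF652 and ZNF713 were higher by 1.66-fold to 1.69-fold.

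The 11 ZNF genes more than 2-fold lower in HMPOS were led by ZNF467 and ZNF613. ZNF467 was at 0.151 FPKM in HMPOS against 1.07 in POS, a log2 ratio of -2.83, and ZNF613 at 0.566 and 3.95 FPKM, a log2 ratio of -2.81. ZNF772 was at 0.682 and 2.06 FPKM, ZNF550 at 1.44 and 3.52 FPKM, and ZNF350, a KRAB protein that binds BRCA1, at 4.28 and 10.5 FPKM. ZNF703, a corepressor and a known driver of luminal breast cancer, was at 1.29 and 3.21 FPKM on chromosome 16 from 27669461 to 27673808. Its close relative ZNF503 was higher in HMPOS, as given above.

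ZNF462 was at 1.93 FPKM in HMPOS against 4.75 in POS, and ZNF268, a KRAB zinc finger gene, at 5.66 and 12.2 FPKM. The other ZNF genes more than 2-fold lower were ZNF641 at 0.280 and 0.673 FPKM, ZNF688 at 1.12 and 2.26 FPKM, and ZNF396 at 3.73 and 7.51 FPKM. With a pseudocount of 1 FPKM, 2 ZNF genes remained more than 2-fold lower. ZNF706 again had the highest level of all ZNF genes, at 244.4 and 326.3 FPKM, followed by ZNF106 at 69.9 and 51.6 FPKM.

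The 2 tables for HMPOS share the parental HMPOS libraries, and 8 ZNF genes stand in both. Their parental HMPOS value differed between the tables by a log2 ratio of at most 0.0021. ZNF451 was at 7.23 FPKM in extravasated HMPOS, 13.6 FPKM in HMPOS against 5.33 in POS. ZNF521 was at 14.04, 8.85 and 14.3 FPKM, and ZNF622 at 12.1, 18.4 and 11.1 FPKM, in the same order. ZNF571 was at 1.19, 0.432 and 0.748 FPKM, and ZNF697 at 1.76, 0.910 and 1.56 FPKM. Because a high or low parental HMPOS value enters both comparisons, nothing is read from these directions together.

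D17 and HMPOS against POS share no libraries, and 27 ZNF genes stand in both, 43.5% of those in D17 and 26.2% of those in HMPOS against POS. Over all listed genes the shared part was larger, 59.5% of the D17 table and 45.6% of that for HMPOS against POS. Of the 27 ZNF genes, 13 were higher in extravasated D17 and lower in HMPOS than in POS, among them ZNF140, ZNF268, ZNF395, ZNF445 and ZNF467. A further 5 were lower in extravasated D17 and higher in HMPOS than in POS, namely ZNF215, ZNF326, ZNF622, ZNF704 and ZNF829. ZNF365, ZNF385B, ZNF503, ZNF514, ZNF532 and ZNF821 were higher in both, and ZNF316, ZNF367 and ZNF462 lower in both. Directions were opposite for 18 of the 27 ZNF genes (66.7%) and for 2043 of the 2623 shared genes of all kinds (77.9%). With the D17 groups exchanged, they would be opposite for 9 of 27 (33.3%) and 580 of 2623 (22.1%). ZNF445, a KRAB protein that maintains genomic imprints, was at 9.24 against 6.73 FPKM in D17 and at 9.99 FPKM in HMPOS against 16.3 FPKM in POS. ZNF395, a gene induced by low oxygen, was at 9.85 against 6.77 FPKM in D17 and at 11.97 against 23.6 FPKM.

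ZNF proteins that act on RNA, ribosomes or the spindle formed a list of 14 genes. In D17 5 were listed, 1 higher and 4 lower after extravasation, at a median log2 ratio of -0.53 against 0.39 for all listed genes. The 4 lower genes were ZNF593, ZNF622, ZNF326 and ZNF346, the last of which binds double-stranded RNA and was at 4.52 and 6.53 FPKM. ZNF385B, linked to p53, was higher, at 26.2 and 19.7 FPKM. In HMPOS 1 was listed, ZNF622, which was lower. In HMPOS against POS 4 were listed and 4 were higher in HMPOS, with a median log2 ratio of 0.58 against -0.31 for all listed genes. They were ZNF106, ZNF326, ZNF385B at 10.9 and 6.61 FPKM, and ZNF622 at 18.4 and 11.1 FPKM. None of these listed genes passed a 2-fold change, against 26.8%, 25.3% and 27.6% of all listed genes in D17, HMPOS and HMPOS against POS. The shares of all listed genes that were higher were 54.2%, 67% and 47.7% in the same order.

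DNA-binding regulators known without a KRAB domain formed a list of 31 genes. In D17 3 were listed and 0 passed a 2-fold change, with ZNF462 and ZNF704 lower and ZNF618 higher, at 4.81 and 3.19 FPKM. In HMPOS 2 were listed, ZNF462 and ZNF521, and both were higher in extravasated cells. In HMPOS against POS 16 were listed, 6 higher and 10 lower in HMPOS, while 47.7% of all listed genes were higher. The median log2 ratio of these 16 was -0.31, equal to that of all listed genes. ZNF711 passed 2-fold upward, as did 8.49% of all listed genes, and ZNF462 and ZNF703 downward, as did 19.1%. ZNF143, which binds promoters and anchors chromatin loops, was at 10.6 FPKM in HMPOS against 8.63 in POS, while its paralog ZNF76 was at 15.002 and 18.4 FPKM. ZNF148, a factor of GC-rich promoters, was at 20.9 and 15.3 FPKM, and ZNF410, an activator of the remodeler gene CHD4, at 35.9 and 26.9 FPKM. ZNF521 was at 8.84 and 14.3 FPKM and ZNF608 at 4.92 and 8.51 FPKM.

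The ZNF genes on neither list, many of them KRAB genes by common knowledge, numbered 54 in D17 with 36 higher and 18 lower, 7 in HMPOS with 3 higher and 4 lower, and 83 in HMPOS against POS with 27 higher and 56 lower. Over all listed genes, 54.2%, 67% and 47.7% were higher in these tables. The median log2 ratios of these ZNF genes were 0.46, -0.47 and -0.46, against 0.39, 0.58 and -0.31 for all listed genes. Their median level was 6.51 FPKM in D17 and 7.81 FPKM in HMPOS against POS. KRAB domains were not read from sequence here. The set also holds genes such as ZNF706, with its single finger, so its counts and medians do not describe KRAB genes alone.

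A list of 30 symbols covered KAP1, its partners and related heterochromatin proteins, with 2 of the symbols naming the same gene. Of these, 12 were listed in D17, where 20% of the RefSeq protein-coding symbols outside the ZNF genes were listed. That share covers symbols at any level of expression, whereas the 12 had a median level of 34.9 FPKM, against 19.5 FPKM for all listed genes. After extravasation 1 of the 12 was higher and 11 were lower, while 54.2% of all listed genes were higher. The median log2 ratio was -0.59, against 0.39 for all listed genes. TRIM28, which encodes KAP1, was at 72.3 FPKM in extravasated cells against 131.8 in the parental line. UHRF1, which guides DNA methylation to newly copied DNA, was at 5.16 and 24.7 FPKM, and SUV39H1, a histone methyltransferase, at 8.92 and 22.3 FPKM. These were the 2 genes of the list past 2-fold, both lower, a change found for 8.5% of all listed genes. CBX5, which encodes an HP1 protein, was at 144.8 and 206.1 FPKM, and the maintenance methyltransferase gene DNMT1 at 29.2 and 54.2 FPKM. MORC3, the gene that was higher, was at 9.54 and 7.43 FPKM. SETDB1 was not listed in any table.

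In HMPOS 0 of the 30 symbols were listed, in a table that lists 5.4% of the RefSeq protein-coding symbols outside the ZNF genes. In HMPOS against POS, which lists 25.8% of them, 5 of the 30 were listed, 3 higher and 2 lower in HMPOS. Of all genes listed there, 47.7% were higher. RIF1, which acts in replication timing, was at 14.2 and 7.02 FPKM and passed 2-fold, SUV39H1 was at 15.2 and 9.48 FPKM, and HDAC1, a histone deacetylase gene, was at 38.9 and 58.0 FPKM. DNMT1, UHRF1 and SUV39H1 also follow the cell cycle, whose part in the D17 values was not tested.

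Listed ZNF genes lay on 23 chromosomes in D17 and 30 in HMPOS against POS, with the most on chromosome 1. Positions are those of the tables, on CanFam3.1 by the sample records, and the tables do not say whether starts count from 0 or 1. In D17 chromosome 1 held 15 of the 62 ZNF genes (24.2%) but 5.89% of all listed genes, and in HMPOS against POS 26 of 103 (25.2%) against 5.57%. In RefSeq, on another dog assembly, chromosome 1 holds 71 of the 266 ZNF symbols (26.7%). Chromosome 6 followed with 7 ZNF genes in D17 and 9 in HMPOS against POS, and chromosome 16 held 7 in HMPOS against POS. The 10 ZNF genes in HMPOS included 3 on chromosome 1.

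Within HMPOS against POS, the direction differed between chromosomes. On chromosome 1, 6 ZNF genes were higher and 20 lower in HMPOS, and 26.5% of the 294 other listed genes there were higher. On chromosome 16, 0 were higher and 7 lower, and 16.2% of the 105 others were higher. On chromosome 26, 0 were higher and 4 lower, and 28.5% of 137 others were higher. Chromosome 35 was the reverse, with 3 ZNF genes higher (ZNF322, ZNF391 and ZNF311), 0 lower, and 81.1% of 53 others higher. In all, 70 of the 103 ZNF genes pointed the same way as most other listed genes on their chromosome. Chromosome 20 also agreed, with 1 ZNF gene higher and 5 lower while 29.4% of 262 others were higher. So did chromosome 2, with 0 higher and 3 lower while 18.7% of 225 others were higher. On some chromosomes, however, most ZNF genes pointed the other way from most of the other listed genes. On several of these, the others were split almost evenly. On chromosome 27, 0 ZNF genes were higher and 3 lower while 51.2% of 125 others were higher, and on chromosome 4, 3 were higher and 1 lower while 35.9% of 153 others were higher. Chromosomes 7 and 25 each had 2 ZNF genes lower and 0 higher, with 55.3% and 53.2% of the others higher. Chromosome 6 had 5 ZNF genes higher and 4 lower, with 48.4% of 213 others higher. Chromosomes 5, 13, 28 and 36, with 1 ZNF gene each, also went against the others there, of which 46% were higher on chromosome 5. On chromosome 1 in D17, 9 ZNF genes were higher and 6 lower, and 59.6% of 245 others were higher.

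**Figure D4:**
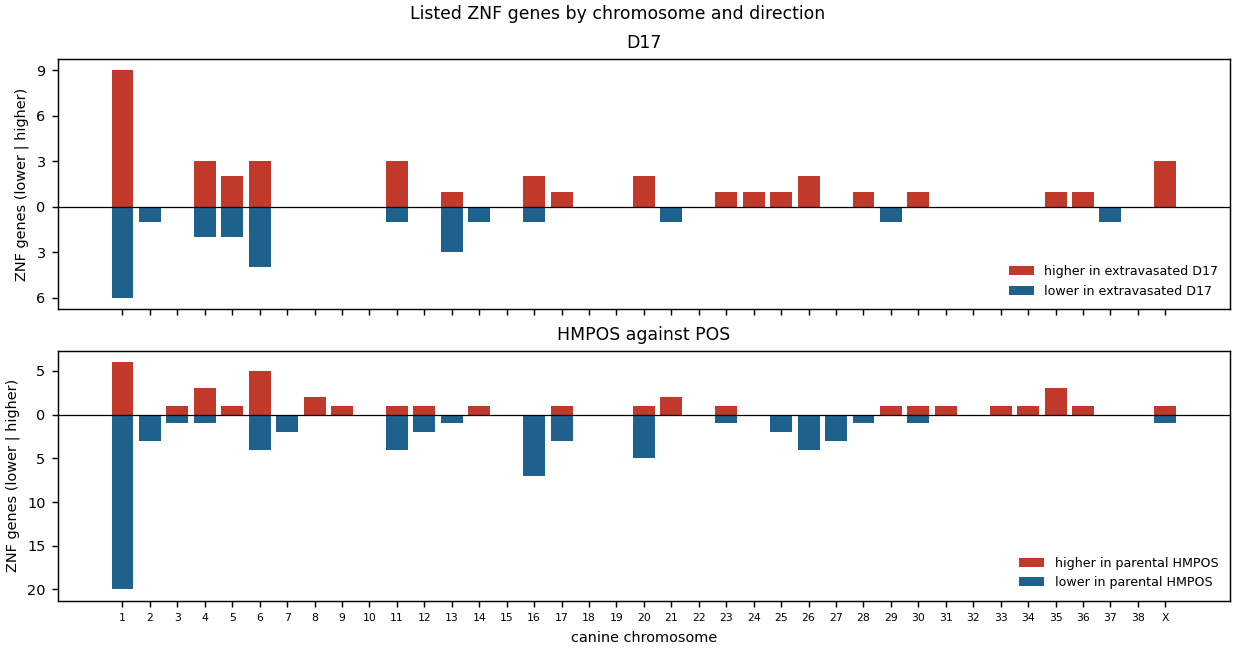
Number of listed ZNF genes on each canine chromosome, counted upward in red for genes higher and downward in blue for genes lower in extravasated D17 (upper panel) or in parental HMPOS against POS (lower panel). Chromosome 1 holds the most in both, 15 and 26, and chromosome 16 holds 7 genes that are all lower in HMPOS than in POS.

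Runs were formed of neighbouring ZNF genes no more than 1 Mb apart. In D17 31 of the 62 ZNF genes fell into 10 runs, in HMPOS 2 of 10 into 1 run, and in HMPOS against POS 46 of 103 into 13 runs. All members of a run pointed the same way in 2 of the 7 D17 runs with at least 3 genes and in 3 of the 9 such runs in HMPOS against POS. The others were mixed.

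The largest run in D17 spanned 988.6 kb of chromosome 1, from 115471647 to 116460255, and held ZNF570, ZNF829, ZNF566, ZNF529, ZNF382 and ZNF146. ZNF829 and ZNF146 were lower in extravasated cells and the other 4 were higher. ZNF570 was at 7.19 and 4.81 FPKM, ZNF566 at 5.39 and 3.62 FPKM, and ZNF529 at 6.20 and 4.69 FPKM. Of 7 other listed genes within 0.5 Mb, 6 were higher. Neighbours therefore differed in direction within less than 1 Mb.

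The 3 ZNF genes on the X chromosome in D17, all with higher values in extravasated cells, formed 1 run of 551.3 kb. ZNF41 was at 3.29 and 2.06 FPKM, ZNF81 at 4.96 and 2.73 FPKM, and ZNF182 at 4.76 and 3.03 FPKM, which gave log2 ratios from 0.65 to 0.86. Of 11 other listed genes within 0.5 Mb, 7 were higher and 4 lower, with a median log2 ratio of 0.36. On chromosome 13, ZNF7 at 22.3 and 30.5 FPKM, ZNF517 at 16.5 and 20.5 FPKM, and ZNF16 were all lower over 103.1 kb, while 5 of the 11 other listed genes around them were higher and 6 lower.

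In HMPOS against POS the 3 runs of at least 3 genes with a single direction lay on chromosomes 1, 16 and 26. On chromosome 1, ZNF782 at 3.236 and 4.1996 FPKM, ZNF510 at 4.71 and 7.13 FPKM, and ZNF367 at 11.88 and 21.7 FPKM were lower in HMPOS, as were both other listed genes around them. On chromosome 16, from 13743403 to 14544760, ZNF672, ZNF425, ZNF398, ZNF282, ZNF777 and ZNF467 were all lower in HMPOS. ZNF282 was at 11.0 FPKM in HMPOS against 18.2 in POS, ZNF425 at 5.90 and 8.34 FPKM, and ZNF777 at 7.13 and 9.41 FPKM. All 4 other listed genes within 0.5 Mb were lower as well, with a median log2 ratio of -1.21 against -0.46 for the ZNF genes. On chromosome 26, from 46171 to 257312, ZNF268, ZNF10, ZNF140 and ZNF605 were lower in HMPOS, by log2 ratios from -1.10 to -0.59. ZNF10, whose KRAB domain is widely used to silence genes in the laboratory, was at 6.49 and 9.80 FPKM, ZNF140 at 6.90 and 12.8 FPKM, and ZNF605 at 3.04 and 5.72 FPKM. All 8 other listed genes around this run were lower too, with a median log2 ratio of -0.57. In D17, ZNF268 and ZNF140 of the same run were higher in extravasated cells, at 6.83 against 4.34 FPKM and at 8.36 against 5.47 FPKM.

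The largest run in HMPOS against POS held 7 genes over 2668 kb of chromosome 1, of which ZNF484 was higher and ZNF606, ZNF550, ZNF772, ZNF548, ZNF264 and ZNF787 were lower in HMPOS. Further along the chromosome, from 105119926 to 105522789, ZNF350, ZNF614 and ZNF613 were lower, at 4.28 and 10.5 FPKM, 4.70 and 6.07 FPKM, and 0.566 and 3.95 FPKM. ZNF175, at 3.85 and 3.12 FPKM, was higher. The 4 other listed genes around it were lower, with a median log2 ratio of -1.29. On chromosome 35, ZNF322 at 21.2 and 13.7 FPKM and ZNF391 at 7.58 and 4.87 FPKM were higher, as were the 4 other listed genes near them. ZNF853 and ZNF316 on chromosome 6 were lower, whereas the 4 other listed genes near them were higher.

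**Figure D5:**
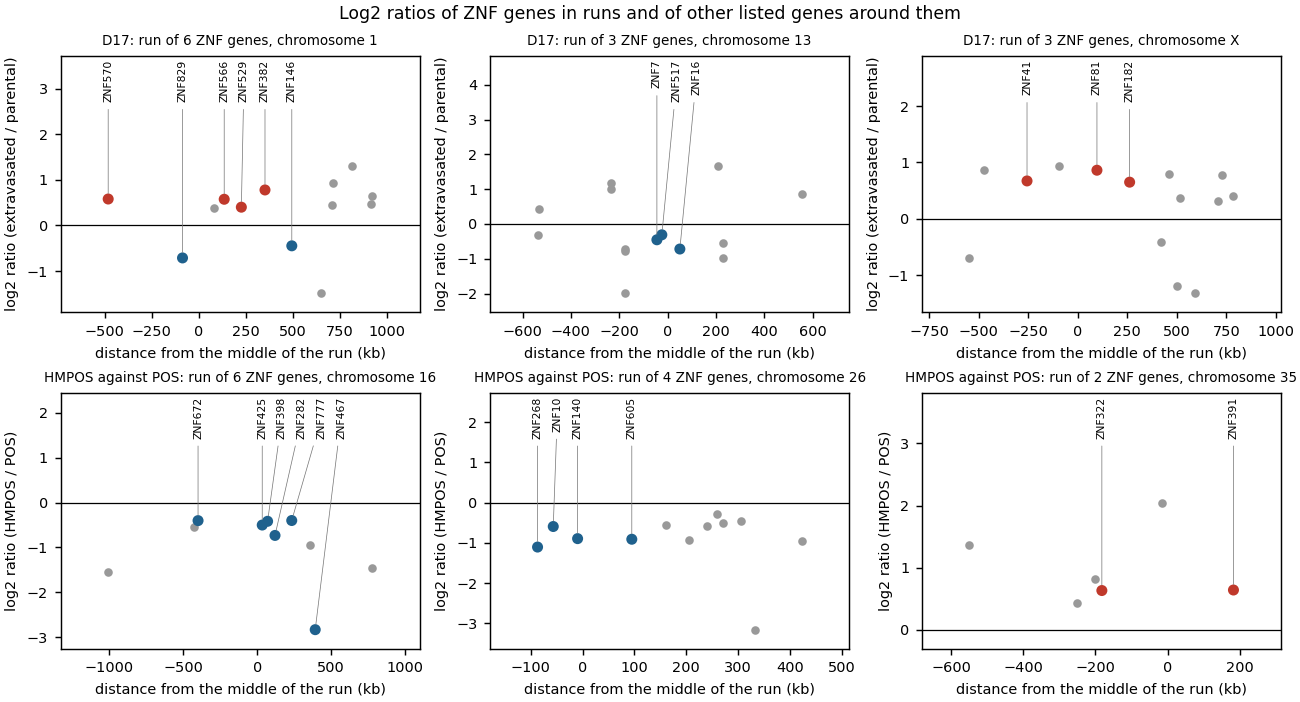
Log2 ratio (extravasated over parental D17, or HMPOS over POS) against distance in kb from the middle of the run, for 3 runs in each comparison. Named points are ZNF genes, red for higher and blue for lower values, and grey points are other listed genes within 0.5 Mb. In the panels for chromosomes 16 and 26 every point lies below 0; in the panels for D17 the grey points lie on both sides.

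Directions were also compared with those of the other listed genes within 1 Mb of each ZNF gene. In HMPOS against POS, 64 of 84 ZNF genes with a majority direction around them pointed the same way (76.2%), against 68.2% of the other listed genes compared with their own neighbours. In D17 the count was 36 of 52 (69.2%, against 54.3%), and in HMPOS 4 of 7 (57.1%, against 81%). Over whole chromosomes the shares for ZNF genes and the others were 68% and 65.5% in HMPOS against POS, 62.9% and 53.9% in D17, and 75% and 69.3% in HMPOS, where the order was the reverse of that within 1 Mb. These shares are descriptions, since neighbouring genes are not independent. Copy number was not analysed here, so its part in the directions along chromosomes was not tested.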

How the data were processed

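RNA sequencing covered 15 libraries in 5 groups. The labels name Trimmomatic 0.38, TopHat2, Cufflinks and Cuffdiff on CanFam3.1, whereas the article describes STAR, voom and limma. The tables have Cuffdiff columns. The authors deposited FPKM per group, pooled over its libraries, for genes that passed their test. Fold changes, test statistics, p-values and q-values in the tables are the authors' own comparisons and were not used. The number of single-sample columns left unused was 0. Group names ending in norm were taken for the parental lines, because the POS group was never passed through zebrafish, and the other name for extravasated cells.

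Ratios were recomputed from the FPKM with no pseudocount. No ZNF gene had a value of 0. Depth is unknown, and no test was run, since each group has 1 value. The limit was a fold change above 2. Runs used gaps of at most 1 Mb, and other listed genes were taken to 0.5 Mb on either side. The code was tested on simulated data. Python 3.11.15, numpy 2.4.6, pandas 2.3.3 and matplotlib 3.10.9 were used.

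The genes and lists were chosen with earlier results of these data known. Named genes were, per table, the 8 largest increases and decreases at 1 FPKM or more (all genes where a table lists 25 or fewer), the 5 highest levels, genes shared by D17 and HMPOS, the largest runs, and genes of the lists. Others, namely ZNF285, ZNF467, ZNF454 in D17, ZNF641, ZNF688, ZNF396, ZNF311, the smaller uniform runs and genes shared with HMPOS against POS, were added after their values were seen, as was the comparison with neighbouring genes. RefSeq symbols (UU_Cfam_GSD_1.0) matched 122 of the 138 genes and served for names and counts alone. Protein and promoter sequences were not used here.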

Additional observations from a re-analysis of the deposited data

How the results depend on the processing

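With a fold change above 1.5, 20 ZNF genes were higher and 11 lower in D17, 4 and 2 in HMPOS, and 12 and 36 in HMPOS against POS. Shares of all listed genes were not counted at 1.5-fold or with a pseudocount, so these counts do not set ZNF genes apart. At any fold change the counts were 38 and 24, 5 and 5, and 37 and 66. With at least 1 FPKM, 1 was more than 2-fold higher in D17 (1.69%, against 16.2% of all listed genes at that level). There, 3 were more than 2-fold lower (5.08% against 8.38%). A pseudocount of 1 left 0 higher and 1 lower in D17, 0 higher in HMPOS and 2 lower in HMPOS against POS, and one of 0.1 left 2 higher in D17. After centring on the median of all listed genes, 2 were higher and 10 lower in D17, 0 and 5 in HMPOS, and 10 and 4 in HMPOS against POS. The split past 2-fold thus turned from mostly higher to mostly lower in D17 and HMPOS. In HMPOS against POS it turned from mostly lower to mostly higher. Centring shifts every listed gene by the same amount, and all listed genes were not counted again after it. The turn is therefore not read as a result about ZNF genes. The medians then became 0.029, -0.58 and -0.10. In HMPOS the median was also negative with at least 1 FPKM (-0.47), a pseudocount of 1 (-0.055) and the ZFP, ZSCAN, ZKSCAN and ZBTB symbols added (-0.40), and 0.0012 with a pseudocount of 0.1. For genes shared by D17 and HMPOS, a fold change above 2 in both left 0 in each direction, and at least 1 FPKM left 0 higher in both. With the D17 groups exchanged, a setting chosen after seeing the data, 9 in place of 18 ZNF genes shared by D17 and HMPOS against POS had opposite directions, and every D17 direction would turn. Of 79 values under alternatives, 42 stayed close to the main value (within 1.5 times for counts), including those for runs with gaps of 0.5 and 2 Mb. Listed genes were selected by the authors' test, which makes that median a selected reference. The alternative for KRAB-holding genes was not run, since protein sequences were not used here. No paired analysis was possible because each group has 1 pooled value, and for the same reason no replicate could be left out. Unknown depth limits genes below 1 FPKM most.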

Other observations

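Other zinc finger families were also listed, and in D17 and HMPOS their directions rest on the column names as those of the ZNF genes do. ZFP36L1, which destabilizes mRNA and whose finger is of another kind, was at 74.0 FPKM in D17 extravasated cells against 22.5 in the parental line, at 44.8 and 27.7 FPKM in HMPOS, and at 27.6 FPKM in parental HMPOS against 94.3 FPKM in POS. The KLF genes, Krüppel-like transcription factors, had 4 of 5 listed members higher in extravasated D17, 2 of 2 in extravasated HMPOS, and 2 of 6 in HMPOS over POS. The shares over all listed genes were 54.2%, 67% and 47.7%, and counts this small are a description only. KLF10, an early response gene of TGF-beta in osteoblasts, was at 49.4 and 23.8 FPKM in D17, and KLF11 was at 15.5 and 9.84 FPKM in D17 and 14.99 and 8.42 FPKM in HMPOS. Past 2-fold were KLF10 and KLF9 in D17, both higher, and none in HMPOS. Of all listed genes, 18.3% were more than 2-fold higher in D17 and 20.5% in HMPOS. In HMPOS against POS, KLF12 was more than 2-fold higher, as were 8.49% of all listed genes. KLF5 and KLF9 were more than 2-fold lower there, as were 19.1%.

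The ZBTB genes, which pair zinc fingers with a BTB domain, had 4 of 9 listed members higher in extravasated D17 and 3 of 12 higher in HMPOS than in POS, against the same 54.2% and 47.7% of all listed genes. ZBTB47 was at 6.19 FPKM in HMPOS against 14.2 in POS, and ZBTB12 at 3.92 and 8.86 FPKM. Of the ZSCAN genes, 0 of 3 were higher in extravasated D17 and 4 of 6 in HMPOS than in POS. ZFP37 was the largest difference among these families, at 2.91 FPKM in HMPOS against 0.17 in POS, a log2 ratio of 4.09, above that of every listed ZNF gene. All these values are the authors' pooled values with no replicate check, and the KLF and ZBTB families were chosen with earlier results known.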
